A study of Mus musculus with 18 samples.

Results

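The genes described here are the 45 proteasome genes that the array measured by symbol: those whose symbol is Psm followed by a letter from a to g and a number, without the 3 immunoproteasome genes Psmb8, Psmb9 and Psmb10. They were chosen by symbol and not by any measured value, and they are 45 of the 19938 genes tested. Each gene is represented by the probe set that names it alone and has the highest mean over all 18 arrays. By role they are 8 alpha and 8 beta subunits of the core, 6 ATPases and 3 other subunits of the base, 8 subunits of the lid, 7 assembly factors, 4 activators and 1 inhibitor.

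RNA was measured on whole-transcript mouse gene arrays in 6 groups, each with 3 arrays. The Comma-D line, of mammary epithelium, is labelled normal and negative for erbB2 and its phosphorylated form, grown in DMEM/F12 with 2% FBS, 10 ug/ml insulin and 5 ng/ml EGF. MMTV-neu is a mammary tumour line labelled cancer and positive for both, grown in DMEM with 10% FBS. In the mouse model of that name the mammary tumour virus promoter drives the rat neu gene in mammary epithelium. The other 4 groups are erbB2-negative and erbB2-positive cells from co-cultures of both lines at 1:50 or 1:1 in the Comma-D medium, separated with an antibody to erbB2 on magnetic beads. By label, erbB2-positive cells of the 1:50 co-culture are redirected and carry erbB2 without its phosphorylated form. Those of the 1:1 co-culture are labelled cancer, and erbB2-negative cells of either ratio normal. The labels do not say which line made up the 50 parts, and neither reading is assumed here. Line and medium cannot be told apart in any comparison of unmixed MMTV-neu. Nothing used here says whether the unmixed lines passed over the column, and nothing says that the 3 samples of a group came from separate cultures, so p-values measure the spread between these samples, which may be technical.

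The proteasome is the protease that degrades proteins tagged with ubiquitin. Its core is a barrel of alpha rings, which gate the entrance, around beta rings, of which Psmb5, Psmb6 and Psmb7 carry the chymotrypsin-like, caspase-like and trypsin-like sites. A regulatory particle sits on the core: its base holds a ring of ATPases that unfold the substrate, and its lid holds Psmd14, which removes ubiquitin. Assembly chaperones put these parts together, other activators (Psme1 to Psme4) can replace the regulatory particle, and Psmf1, known as PI31, binds the core. Psma8 belongs to the testis and Psmb11 to the thymus. Since most subunits occur in the particle in fixed numbers, their transcripts are often described as regulated together, in part by the factor Nfe2l1.

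Values are deposited log2 signals, and a gene is called here when its two-sided limma p, adjusted by the Benjamini-Hochberg method across the 19938 genes, is under 0.05. The arrays did not share a common spread of values: the mean standard deviation over probe sets was 1.98 in Comma-D, 1.53 in MMTV-neu, and between 1.66 and 1.99 in the fractions. The mean of 10 reference genes ran from 10.16 in Comma-D to 8.70 in MMTV-neu. Each comparison was therefore also computed with arrays centred on those reference genes and after quantile normalization, and centring moved the median difference of all genes between the lines from 0.40 to 1.86. The reference genes themselves moved unevenly, with MMTV-neu minus Comma-D from 0.24 for Ywhaz to -2.91 for Tbp. Whether their mean is a sound standard was not tested. The median of the members in replicate 1 of the 1:1 erbB2-negative, 1:50 erbB2-positive and 1:1 erbB2-positive groups lay nearer to MMTV-neu than in their other replicates. The mean of mouse Erbb2, the gene named by the sorting antigen, lay between 7.80 and 8.27 in all 6 groups and did not separate them by label. Whether its probe set on these mouse arrays also reads a rat neu transcript was not tested. Of the epithelial markers measured, 8 of 9 luminal and 9 of 10 basal ones exceeded the array median in Comma-D, and 8 of 9 and 10 of 10 in MMTV-neu, and both lists moved unevenly. The luminal markers Krt8 and Foxa1 read 7.41 and 7.38 in Comma-D and 11.34 and 10.10 in MMTV-neu, while Epcam and Cdh1 read 9.53 and 9.41 against 5.88 and 7.12, and the basal marker Krt14 read 10.98 against 7.43. Another basal marker, Myh11, read 5.97 in Comma-D and 7.41 in MMTV-neu. Mylk was also slightly higher in MMTV-neu, and the remaining basal markers were lower. Of fibroblast markers 6 of 9 exceeded the array median in both lines, and this list moved unevenly too. Pdgfra read 10.65 in Comma-D and 7.05 in MMTV-neu and Pdgfrb 10.84 and 7.14, and Dcn and Col1a1 were also lower in MMTV-neu. Col1a2 read 6.54 and 7.98 and Thy1 5.81 and 7.77, and Col3a1, Fap and Lum were also higher in MMTV-neu. Of the endothelial markers 0 of 8 exceeded it in Comma-D and 2 of 8 in MMTV-neu, of leukocyte markers 2 of 9 in both. In bulk RNA, fewer cells of a type and less RNA per cell cannot be told apart.

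The unmixed lines were compared first, because the fractions are set between them. Proteasome genes did not move as 1 block between MMTV-neu and Comma-D. Nor did genes in general: the SD of the differences was 1.02 over the members and 1.22 over all genes. On all 3 scalings 9 members were lower in MMTV-neu, namely the alpha subunits Psma3 and Psma4, the beta subunit Psmb7, the base subunit Psmd1, the lid subunits Psmd7 and Psmd12, the base chaperone Psmd5 and the activators Psme2 and Psme4. Likewise 3 were higher, the ATPase Psmc3 and the core chaperones Psmg3 and Psmg4. As deposited, 35 of 45 members were lower and 5 higher, beside 86.8% of all genes called in either direction, 56.4% higher and 30.4% lower. The median difference of the members was -1.23 as deposited, -0.13 after quantile normalization and 0.23 with centring, so no direction holds for the family as a whole. In the 4984 genes with the highest means, which include 37 of the members, the medians were -1.08, -0.31 and 0.38. Most of those 4984 genes were also called lower as deposited, as counted below beside the proteasome partners. The counts of lower members, also those by role, should be read beside that. Called with the same sign on all 3 scalings were 8.79% of all genes lower and 41.7% higher, and among those 4984 genes 28.4% and 13%. The arrays of both lines did not overlap for 38 members, beside 87.2% of all genes. The rule on named members covers a panel chosen by role and those with the largest differences. The others given with statistics were chosen after their values were seen.

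**Figure D1:**
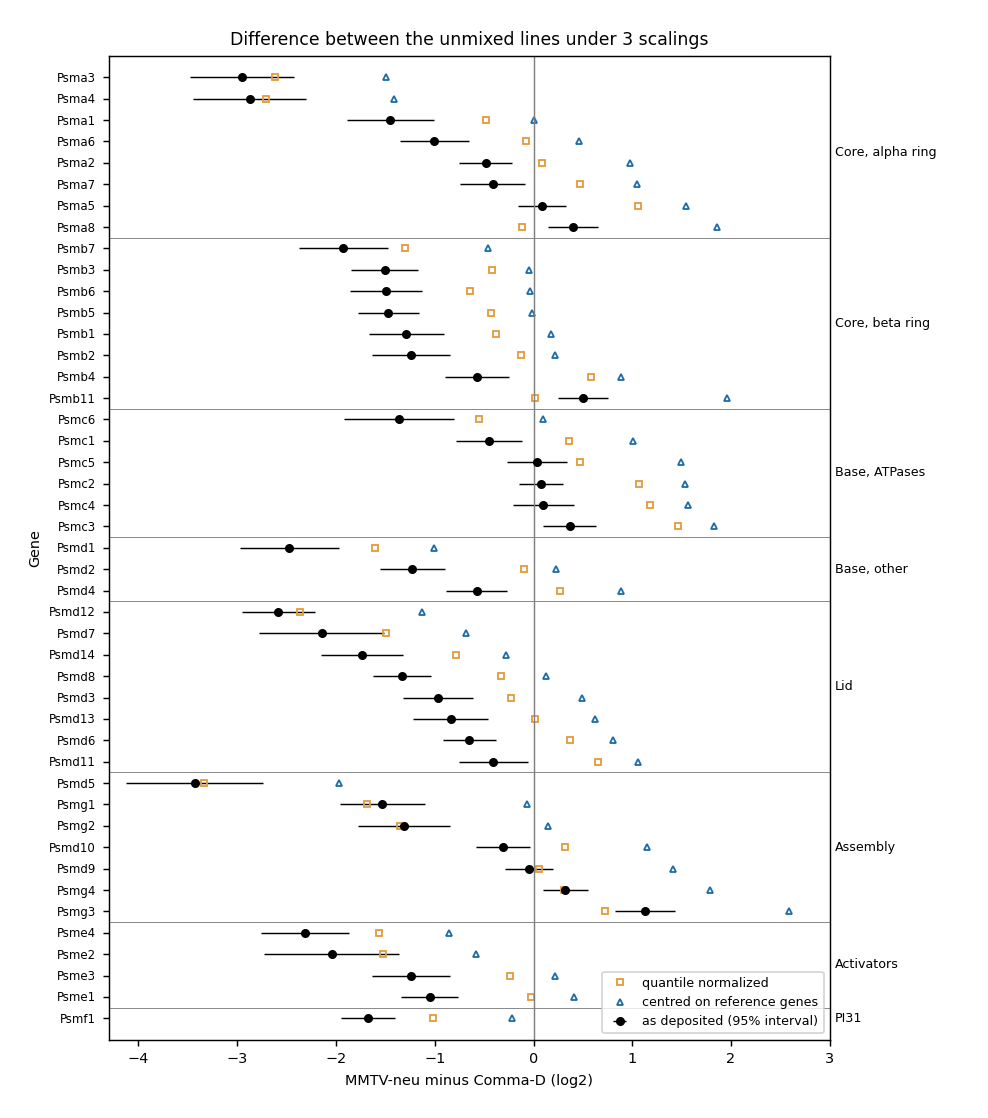
Difference between MMTV-neu and Comma-D in log2 units (horizontal axis) for the 45 members, ordered by role; black points are deposited values with 95% intervals, and open symbols the other scalings. Psma3, Psma4, Psmd12 and Psmd5 lie left of 0 on every scaling, whereas the alpha subunit Psma5, the ATPase Psmc2 and the lid subunit Psmd11 lie right of 0 when arrays are centred.

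In the alpha ring, 6 of 8 members were lower, 1 was higher and 1 was not called (median -0.74), while centring gave 5 higher and 2 lower. Quantile normalization left Psma1, Psma3 and Psma4 called lower, and Psma5 and Psma7 higher. Psma3, an alpha subunit, read 9.96, 9.86 and 9.86 on the Comma-D arrays and 7.07, 6.99 and 6.76 on the MMTV-neu arrays. The groups lie far apart with little spread in either. It fell by 2.95 log2 units in MMTV-neu (SE 0.25, 7.75-fold lower, limma adjusted p = 2.453e-08), with -1.495 after centring and -2.61 after quantile normalization. Psma4 read 9.41, 9.38 and 9.40 in Comma-D and 6.81, 6.25 and 6.51 in MMTV-neu, again without overlap, and fell by 2.87 (SE 0.27, adjusted p = 7.453e-08). Psma5, another subunit of the same ring, read 8.86, 8.84 and 8.94 in Comma-D and 8.99, 9.15 and 8.75 in MMTV-neu. Its arrays overlap, and its difference was 0.08 (SE 0.11, adjusted p = 0.5013). Psma7 fell by 0.41 (SE 0.15, 1.33-fold lower, adjusted p = 0.02003) but turned to 1.05 with centring and 0.47 after quantile normalization. The testis subunit Psma8 lay under the array median in all groups and rose by 0.40 (SE 0.12, adjusted p = 0.005558), which turned to -0.11 after quantile normalization.

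The beta ring gave 7 lower and 1 higher of 8 (median -1.38), and with centring 1 lower and 2 higher. Still called lower after quantile normalization were Psmb1, Psmb3, Psmb5, Psmb6 and Psmb7, while Psmb4 was higher. Psmb7, with the trypsin-like site, read 9.45, 9.50 and 9.53 in Comma-D and 8.14, 7.40 and 7.16 in MMTV-neu. All MMTV-neu arrays lie under all Comma-D arrays, and MMTV-neu replicate 1 is the nearest. It fell by 1.92 (SE 0.22, 3.79-fold lower, adjusted p = 4.358e-07), by 0.46 with centring and by 1.30 after quantile normalization. Psmb5, with the chymotrypsin-like site, read 10.50, 10.49 and 10.51 in Comma-D and 9.34, 8.97 and 8.77 in MMTV-neu. It fell by 1.47 (SE 0.15, 2.78-fold lower, adjusted p = 1.295e-07), but by only 0.01 with centring. Psmb6, with the caspase-like site, fell by 1.49 (SE 0.17, adjusted p = 5.503e-07). Thus the transcripts of all 3 catalytic subunits were lower as deposited, and among them Psmb7 alone was called on all 3 scalings. The thymus subunit Psmb11 lay under the array median in every group and rose by 0.50 (SE 0.12, adjusted p = 0.0008229), but differed by 0.017 after quantile normalization (adjusted p = 0.8871).

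Of the 6 ATPases of the base 2 were lower, 1 higher and 3 not called (median 0.05), and on both other scalings 5 were higher and 0 lower. Psmc3 read 9.04, 9.13 and 9.35 in Comma-D and 9.72, 9.50 and 9.40 in MMTV-neu, with the nearest arrays 9.35 and 9.40. It rose by 0.37 (SE 0.13, 1.29-fold, adjusted p = 0.01237), by 1.83 with centring and by 1.46 after quantile normalization, and the deposited call was lost in 2 of 6 fits without 1 array. Psmc4 read 9.29, 9.26 and 9.36 in Comma-D and 9.71, 9.41 and 9.09 in MMTV-neu, so its arrays overlap. Psmc2 differed by 0.08 (adjusted p = 0.5016). Psmc6 went the other way: it read 9.47, 9.36 and 9.34 in Comma-D and 8.22, 8.28 and 7.596 in MMTV-neu. It fell by 1.36 (SE 0.26, 2.57-fold lower, adjusted p = 0.000136), with a value of 0.10 after centring. Among the other base subunits, the scaffold Psmd1 read 10.53, 10.56 and 10.76 in Comma-D and 7.93, 8.004 and 8.51 in MMTV-neu. That gap of 2.47 (SE 0.24, 5.54-fold lower, adjusted p = 9.543e-08) stayed on both other scalings (-1.01 and -1.60). Psmd2, the other scaffold, fell by 1.23 (adjusted p = 1.729e-06) and the ubiquitin receptor Psmd4 fell by 0.58 (adjusted p = 0.001429), but centring turned them to 0.23 and 0.88.

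All 8 lid subunits were lower as deposited (median -1.15), whereas with centring 4 were higher and 2 lower. Quantile normalization left Psmd7, Psmd8, Psmd12 and Psmd14 called lower, and Psmd6 and Psmd11 higher. Psmd12, a scaffold subunit of the lid, read 9.25, 9.35 and 9.38 in Comma-D and 6.72, 6.71 and 6.80 in MMTV-neu. Both groups are tight. It fell by 2.59 (SE 0.17, 6.00-fold lower, adjusted p = 2.16e-09), by 1.13 with centring and by 2.36 after quantile normalization. Psmd7, the partner of the deubiquitinase, read 9.82, 9.80 and 9.68 in Comma-D and 7.67, 6.90 and 8.30 in MMTV-neu. The MMTV-neu arrays spread widely yet stay under every Comma-D array, and it fell by 2.14 (SE 0.30, adjusted p = 4.516e-06). Psmd14, the deubiquitinase, read 10.39, 10.31 and 10.32 in Comma-D and 9.11, 8.44 and 8.27 in MMTV-neu. It fell by 1.74 (SE 0.20, 3.33-fold lower, adjusted p = 5.002e-07), by 0.28 with centring. Psmd11, another lid subunit, read 9.56, 9.48 and 9.64 in Comma-D and 9.18, 9.13 and 9.15 in MMTV-neu. Its small fall of 0.41 (SE 0.16, adjusted p = 0.02852) turned to 1.05 with centring and 0.65 after quantile normalization.

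The assembly factors included both the lowest and the highest difference among the members. Psmd5, a chaperone of the base ATPases, read 9.36, 9.42 and 9.40 in Comma-D and 6.47, 5.58 and 5.86 in MMTV-neu. MMTV-neu replicates 2 and 3 lie under the medians of their arrays. Psmd5 fell by 3.43 (SE 0.33, 10.8-fold lower, adjusted p = 8.912e-08), by 1.97 with centring and by 3.33 after quantile normalization. Psmg3, a chaperone of the core, moved the opposite way, with 5.36, 5.46 and 5.45 in Comma-D and 6.28, 6.78 and 6.59 in MMTV-neu. It rose by 1.13 (SE 0.14, 2.18-fold, adjusted p = 1.885e-06), by 2.59 with centring and by 0.72 after quantile normalization, from a level under the array median. Its relative Psmg1 fell by 1.53 (2.89-fold lower, adjusted p = 2.911e-06), to a level under the array median in MMTV-neu. With centring Psmg1 fell by only 0.07 and was not called (limma adjusted p = 0.7487), so the core chaperones split as deposited but not on every scaling. All 4 activators were lower as deposited (median -1.64). Psme4, known as PA200, read 10.14, 10.17 and 10.16 in Comma-D and 8.08, 7.96 and 7.51 in MMTV-neu, and fell by 2.31 (SE 0.21, adjusted p = 5.378e-08). Psme2, a PA28 subunit, read 9.43, 9.47 and 9.40 in Comma-D and 6.99, 8.31 and 6.88 in MMTV-neu, where replicate 2 stands apart. It fell by 2.04 (SE 0.32, adjusted p = 1.686e-05). Its partner Psme1 fell by 1.05 (adjusted p = 2.339e-06) and the third PA28 gene Psme3 fell by 1.24 (adjusted p = 1.088e-05), and centring turned these to 0.41 and 0.22. The inhibitor Psmf1 read 9.15, 9.40 and 9.35 in Comma-D and 7.65, 7.66 and 7.58 in MMTV-neu, and fell by 1.67 (SE 0.13, adjusted p = 1.025e-08). With centring it fell by 0.21 and was not called (limma adjusted p = 0.2374), and after quantile normalization it fell by 1.01.

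Differences taken within an array do not depend on adding a constant to it, and pairs of members chosen after their values were seen show how unevenly subunits of the same ring or lid changed. No like pairs of other genes were set beside them, so they mark no trait of proteasome genes. Psma3 minus Psma5 lay at -2.93, -3.18 and -3.001 on the 3 MMTV-neu arrays relative to its Comma-D mean. In the 1:50 erbB2-positive fraction it lay at -0.04, -0.05 and -0.05, and in the 1:1 erbB2-positive fraction at -2.67, -2.33 and -1.70. The first fraction thus overlaps Comma-D and the second is near MMTV-neu. Psmd12 minus Psmd11 changed by -2.18 ± 0.06 (SD, n = 3) in MMTV-neu, by -0.12 ± 0.27 in the 1:50 and -1.88 ± 0.37 in the 1:1 erbB2-positive fraction. Psmc6 minus the mean of Psmc2 to Psmc5 changed by -1.504 ± 0.34, -0.25 ± 0.19 and -1.11 ± 0.33 in the same groups. Across the 45 members, the Comma-D level and the difference between the lines had Pearson's r of -0.60 and Spearman's rho of -0.59, beside -0.74 and -0.63 across all genes. These are descriptions over genes that share the same arrays. The Comma-D level is also subtracted within the difference, which favours a negative correlation in advance, so nothing is concluded from these values.

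**Figure D2:**
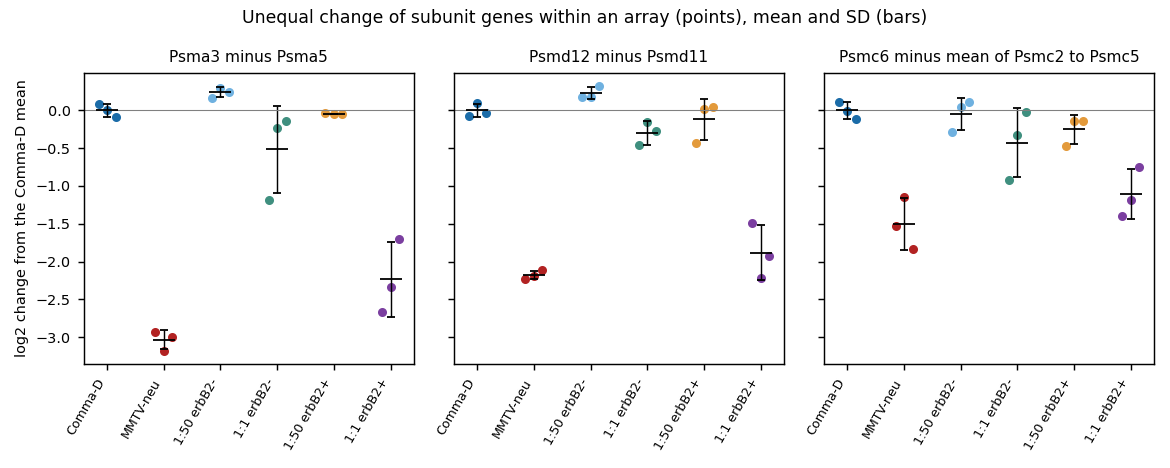
Change of 3 within-array differences from their Comma-D mean in log2 units (vertical axis) by group; points are arrays, bars the mean and SD of 3. The 1:1 erbB2-positive arrays lie between -0.74 and -2.67, and the 1:50 erbB2-positive arrays between 0.05 and -0.47.

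Promoter sequences were available for 37 of the 45 members in RefSeq's table for build GRCm38.p6, each from 250 bases before to 50 after the gene's start. Shown are 2 members that were lowest in MMTV-neu (Psma3 and Psmd5) and the lid subunit called in the test of ratio by fraction (Psmd12). Psmc4 is an ATPase not called between the lines as deposited but called higher on both other scalings. All were picked after the motif matches had been seen. Capitals mark matches on either strand to CCAAT (the NF-Y box), GGGCGG (the GC box) and TGACNNNGC (the core of the antioxidant response element). Psmd12 is shown for chr11:107479278-107479577 on the plus strand, Psma3 for chr12:70974373-70974672 on the plus strand, Psmd5 for chr2:34870913-34871212 on the minus strand and Psmc4 for chr7:28050043-28050342 on the minus strand.
Psmd12: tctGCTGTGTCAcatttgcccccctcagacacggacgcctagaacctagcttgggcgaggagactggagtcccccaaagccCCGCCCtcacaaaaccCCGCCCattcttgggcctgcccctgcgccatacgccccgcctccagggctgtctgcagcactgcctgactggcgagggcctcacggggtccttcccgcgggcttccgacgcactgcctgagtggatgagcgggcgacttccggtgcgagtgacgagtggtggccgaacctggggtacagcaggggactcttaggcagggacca
Psma3: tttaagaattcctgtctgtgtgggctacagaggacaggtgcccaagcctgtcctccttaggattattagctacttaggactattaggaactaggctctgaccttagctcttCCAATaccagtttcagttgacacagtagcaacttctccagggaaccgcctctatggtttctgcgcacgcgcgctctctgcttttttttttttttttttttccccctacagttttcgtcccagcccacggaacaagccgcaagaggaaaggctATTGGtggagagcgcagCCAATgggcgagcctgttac
Psmd5: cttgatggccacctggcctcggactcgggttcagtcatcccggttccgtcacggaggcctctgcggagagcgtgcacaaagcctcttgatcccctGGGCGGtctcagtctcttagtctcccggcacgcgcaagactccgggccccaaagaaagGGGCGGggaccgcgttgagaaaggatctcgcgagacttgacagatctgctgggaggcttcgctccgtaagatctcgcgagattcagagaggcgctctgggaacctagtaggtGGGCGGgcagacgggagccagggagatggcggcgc
Psmc4: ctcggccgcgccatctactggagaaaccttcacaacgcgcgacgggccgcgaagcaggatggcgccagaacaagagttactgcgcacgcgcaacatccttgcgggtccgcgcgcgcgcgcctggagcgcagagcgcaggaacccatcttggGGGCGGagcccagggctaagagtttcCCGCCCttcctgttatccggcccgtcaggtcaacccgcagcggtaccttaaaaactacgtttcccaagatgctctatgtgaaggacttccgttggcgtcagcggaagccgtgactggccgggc

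Psmd12 holds 1 antioxidant response core and 2 GC boxes, Psma3 holds 3 CCAAT boxes, Psmd5 holds 3 GC boxes and Psmc4 holds 2. The 37 members have 40 promoter entries, of which 23 (57.5%) had a GC box, against 35.7% of 32851 promoters in the table. A CCAAT box was found in 13 (32.5%, against 37.4%) and the antioxidant response core in 6 (15%, against 12.4%), namely those of Psmb5, Psmb6, Psmc6, Psmd12, Psmd9 and Psme4. No test was made of these shares, and a match to these letters is not a bound site. Psmd5, lower in MMTV-neu on all scalings, and Psmc4 both hold GC boxes and neither of the other motifs. Between the lines Psmc4 was not called as deposited, but was called higher with centring (1.56) and after quantile normalization (1.18).

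Redirected (1:50) and cancer (1:1) erbB2-positive cells were grown in the same medium and differ in the ratio. In the 1:50 fraction 7 members were higher on all 3 scalings, Psma3, Psma4, Psmd1, Psmd7, Psmd12, Psmd5 and Psme4, and 3 were lower, Psma5, Psmc3 and Psmc4. As deposited 27 of 45 were higher and 6 lower, beside 71.4% of all genes called, 27.4% higher and 44% lower. The median of the members was 0.60, and it was 0.030 after quantile normalization and -0.28 with centring, beside 0.76, 0.27 and -0.11 in the 4984 highest genes. Called with one sign on all scalings were 8.42% of all genes higher and 27.3% lower, and among the 4984 highest 26.8% and 10.4%.

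Psma3 read 9.35, 9.59 and 9.63 in the 1:50 erbB2-positive fraction and 7.16, 7.64 and 8.01 in the 1:1 erbB2-positive fraction. The fractions do not overlap, and in both of them replicate 1 is lowest. The 1:50 fraction was higher by 1.92 (SE 0.25, 3.78-fold, limma adjusted p = 1.289e-05). Psmd5 read 8.11, 8.94 and 8.88 at 1:50 and 6.23, 6.60 and 7.46 at 1:1, higher by 1.88 (SE 0.33, 3.68-fold, adjusted p = 0.0001388). Psmd12 read 8.64, 9.09 and 9.12 at 1:50 and 7.23, 7.13 and 7.596 at 1:1, higher by 1.63 (SE 0.17, 3.09-fold, adjusted p = 2.661e-06). Neither of these overlaps between the fractions either. All lid members but Psmd11 were called higher (7 of 8), as were 6 of 8 beta subunits and 4 of 4 activators, but 0 of 6 ATPases, of which 2 were lower. With centring 2 lid subunits (Psmd7 and Psmd12), 0 beta subunits and 1 activator were higher, while 2 lid subunits, 2 beta subunits and 5 ATPases were lower. After quantile normalization 2 lid subunits, 4 beta subunits and 1 activator were higher, and 1 lid subunit, 1 beta subunit and 4 ATPases lower. With centring Psmb5 lost most of its difference, 1.00 (adjusted p = 3.427e-05) as deposited and 0.13 centred. In the other direction Psmg3 fell by 0.57 (adjusted p = 0.002564), Psmc4 by 0.38 (1.30-fold lower, adjusted p = 0.0274), Psmc3 by 0.32 (adjusted p = 0.03259) and Psma5 by 0.27 (adjusted p = 0.04303). Without 1 array the call was lost in 5 of 6 fits for Psmc4, 3 for Psmc3 and 4 for Psma5.

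**Figure D3:**
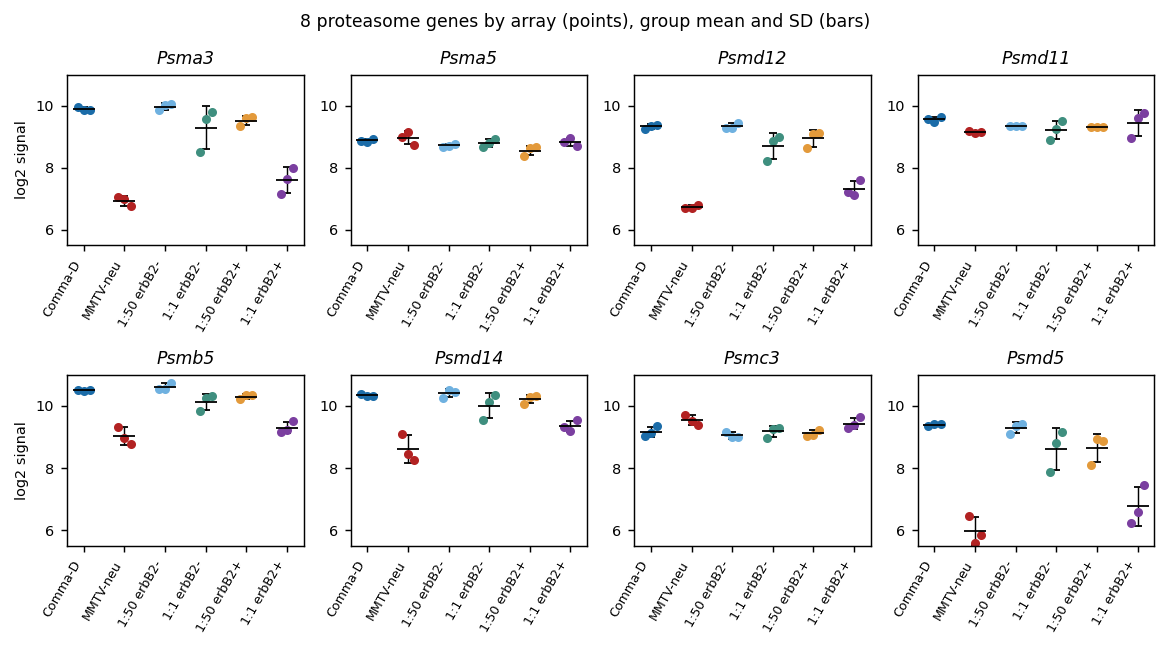
Deposited log2 level (vertical axis) of selected members on each of the 18 arrays by group; points are arrays and bars the group mean and SD. Psma3 and Psmd12 in the 1:50 erbB2-positive fraction lie near but under Comma-D, without overlap, and in the 1:1 erbB2-positive fraction nearer MMTV-neu.

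Within the 1:1 co-culture, 5 members were lower in the erbB2-positive than in the erbB2-negative fraction on all 3 scalings: Psma3, Psma4, Psmd7, Psmd12 and Psmd5, beside 6.83% of all genes lower and 18.7% higher and, among the 4984 highest, 22.6% and 9.07%. As deposited 23 of 45 were lower and 2 higher, beside 56.1% of all genes called, 21% lower and 35.2% higher. The members' median of -0.50 was -0.065 after quantile normalization and turned to 0.15 when arrays were centred. Psma3 read 8.498, 9.57 and 9.79 in the erbB2-negative and 7.16, 7.64 and 8.01 in the erbB2-positive fraction. The fractions do not overlap, and replicate 1 of the negative fraction lies well below its other replicates. Psma3 fell by 1.69 (SE 0.25, 3.22-fold lower, adjusted p = 0.0001218). Psmd5 read 7.87, 8.80 and 9.16 against 6.23, 6.60 and 7.46 and fell by 1.85 (SE 0.33, 3.59-fold lower, adjusted p = 0.0004761). Psmd12 read 8.22, 8.86 and 8.998 against 7.23, 7.13 and 7.596 and fell by 1.37 (SE 0.17, 2.59-fold lower, adjusted p = 4.025e-05). Of the lid 6 of 8 were lower, of the beta ring 5 of 8 and of the activators 4 of 4, while 0 of 6 ATPases were called by limma (0 at an unadjusted p under 0.05). With centring 2 lid subunits were lower and 2 higher, 0 beta subunits lower and 2 higher, 0 activators called, and 5 ATPases higher. After quantile normalization 2 lid and 5 beta subunits were lower, 1 of each higher, and 3 ATPases higher. Higher were Psmg3 by 0.40 (adjusted p = 0.0266) and Psmb11 by 0.33 (adjusted p = 0.02583). Each of these calls was lost in 4 of 6 fits without 1 array, with adjusted p up to 0.1806 and 0.1257 in limma. After quantile normalization the values were 0.17 and 0.11 and were not called.

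The 1:1 erbB2-positive fraction, which the labels call cancer like the unmixed tumour line, was then set against both lines. Against MMTV-neu 7 of 45 members were higher and 0 lower as deposited, beside 18.3% of all genes called, 4.21% higher and 14.1% lower. On all 3 scalings 3 were higher, Psma4, Psmb7 and Psmd1, and 0 were lower, beside 2.6% and 6.27% of all genes and 10.3% and 3.75% of the 4984 highest. Psmb7 read 8.24, 8.46 and 8.87 in the fraction, all above the 3 MMTV-neu arrays, and was higher by 0.96 (SE 0.22, 1.94-fold, adjusted p = 0.00757). Psma4 was higher by 0.85 (adjusted p = 0.03822), Psmd1 by 0.84 (adjusted p = 0.02394) and Psmd14 by 0.74 (adjusted p = 0.01759). The count rested on single arrays: it was 0 without replicate 3 of the fraction and 13 without its replicate 1.

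Against Comma-D, 8 members of this fraction were lower on all 3 scalings, Psma3, Psma4, Psmd1, Psmd7, Psmd12, Psmd5, Psme4 and Psmf1, and Psmg3 alone was higher, beside 9.97% and 34.3% of all genes and 29.3% and 10.5% of the 4984 highest. As deposited 29 were lower and 2 higher, beside 78.3% of all genes called, 32.5% lower and 45.8% higher, and the members' median of -0.97 turned to 0.14 with centring. Psmd5 fell by 2.63 (SE 0.33, 6.20-fold lower, adjusted p = 2.632e-06), Psma3 by 2.29 (SE 0.25, 4.90-fold lower, adjusted p = 7.742e-07) and Psmf1 by 1.60 (SE 0.13, 3.04-fold lower, adjusted p = 5.613e-08). Psmf1 read 7.67, 7.76 and 7.68 in the fraction, close to the 7.65, 7.66 and 7.58 of MMTV-neu. Psmg3 read 6.28, 6.32 and 6.15 and was higher than in Comma-D by 0.83 (1.78-fold, adjusted p = 6.882e-05).

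The 1:50 erbB2-positive fraction, labelled redirected, was set against both lines in turn. Against MMTV-neu, 10 members were higher on all 3 scalings: Psma3, Psma4, Psmb7, Psmd1, Psmd7, Psmd12, Psmd14, Psmd5, Psme2 and Psme4. Lower were 6: Psma5, Psmc2, Psmc3, Psmc4, Psmg3 and Psmg4. Over all genes these shares were 7.88% and 38.2%, and among the 4984 highest 26.9% and 13.8%. This comparison shares the MMTV-neu arrays with that of the lines. As deposited 29 were higher and 8 lower, beside 83.4% of all genes called, 25.8% higher and 57.6% lower, and the members' median of 0.83 turned to -0.39 with centring. Psmd5 was higher by 2.68 (SE 0.33, 6.39-fold, adjusted p = 2.264e-06), Psma3 by 2.58 (SE 0.25, 5.99-fold, adjusted p = 2.144e-07), Psmb7 by 1.66 (3.16-fold, adjusted p = 3.857e-06) and Psmd14 by 1.62 (3.08-fold, adjusted p = 2.067e-06). Psmg3 read 5.75, 5.60 and 5.71, under all MMTV-neu arrays, and fell by 0.86 (1.82-fold lower, adjusted p = 4.458e-05).

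Against Comma-D in the same medium, 1 member of the 1:50 erbB2-positive fraction was called, beside 5.71% of all genes, 1.17% higher and 4.54% lower. At an unadjusted p under 0.05 there were 10 members, with no share of all genes given at that threshold. On all 3 scalings 0 were called, beside 0.221% of all genes higher and 0.466% lower. The called gene was the inhibitor Psmf1, which read 8.42, 8.70 and 8.604 in the fraction, all under the 9.15, 9.40 and 9.35 of Comma-D. It fell by 0.73 (SE 0.13, 1.66-fold lower, adjusted p = 0.00278), and by 0.49 with centring, where it was not called (adjusted p = 0.2349). A fit of the compared arrays alone called 10 members, and a replicate block called 4, with no share of all genes given for these fits. Differences above 0 were found in 3 of 45 members as deposited and in 20 of 45 with centring, and the members' medians were -0.25 and -0.013, beside -0.20 and 0.042 in the 4984 highest genes. For Psma3 the difference was -0.37 (adjusted p = 0.3981), for Psmd12 -0.38 (adjusted p = 0.2168) and for Psmd5 -0.75 (adjusted p = 0.1891). The 3 arrays of Psmd5 in the fraction, 8.11, 8.94 and 8.88, lie under all Comma-D arrays, as do those of Psma3 and Psmd12.

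The erbB2-negative fractions, which the labels call normal, were also set against Comma-D. For the 1:50 erbB2-negative fraction 0 of 45 members were called by limma, beside 1.68% of all genes, 0.592% higher and 1.08% lower. At an unadjusted p under 0.05 there were 2 members, and array weights called 3, with no share of all genes given for either. Psma3 read 9.84, 10.03 and 10.04 there and Psmd12 9.28, 9.29 and 9.44, and the arrays of both genes overlap those of Comma-D. For the 1:1 erbB2-negative fraction 9 were lower and 1 higher, beside 35.7% of all genes, 20.9% lower and 14.9% higher, and 0 were called on all 3 scalings, beside 2.55% of all genes lower and 7.66% higher. With the replicate block 16 members were called, with no share of all genes given for that fit. Psmg2, a core chaperone, fell by 0.76 (adjusted p = 0.01575), Psme4 by 0.74 (adjusted p = 0.01437) and Psmf1 by 0.69 (adjusted p = 0.001414), while Psmg3 rose by 0.43 (adjusted p = 0.03177), a call lost in 5 of 6 fits without 1 array. These counts rested on replicate 1 of the fraction, without which 1 member was called, against 23 without replicate 3. Between the erbB2-negative fractions, 15 members were higher at 1:50 and 0 lower, beside 30.3% of all genes, 21.4% higher and 8.87% lower, and 0 were called on all 3 scalings, beside 0.697% and 2.03%. With the replicate number as a block, 20 were called in the fit of 18 arrays and 30 in that of the 12 co-culture arrays. No share of all genes is given for either fit. Psmg1 was higher by 0.78 (adjusted p = 0.01462) and Psmd1 by 0.65 (adjusted p = 0.04876). The count was 0 without replicate 1 of the 1:1 fraction, and the median of the members turned from 0.40 to -0.060 with centring.

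Within the 1:50 co-culture, 0 of 45 members were called between the erbB2-positive and erbB2-negative fractions, beside 0.01% of all genes. At an unadjusted p under 0.05 there were 18 members, and array weights called 19, with no share of all genes given for either. Psmd5 differed by -0.65 (adjusted p = 0.3984) and Psmf1 by -0.51 (adjusted p = 0.199). Differences above 0 were found in 3 of 45 members as deposited and in more of them with centring, with no share of all genes given for the direction. On deposited values the arrays of 31 did not overlap, beside 29.1% of all genes.

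**Figure D4:**
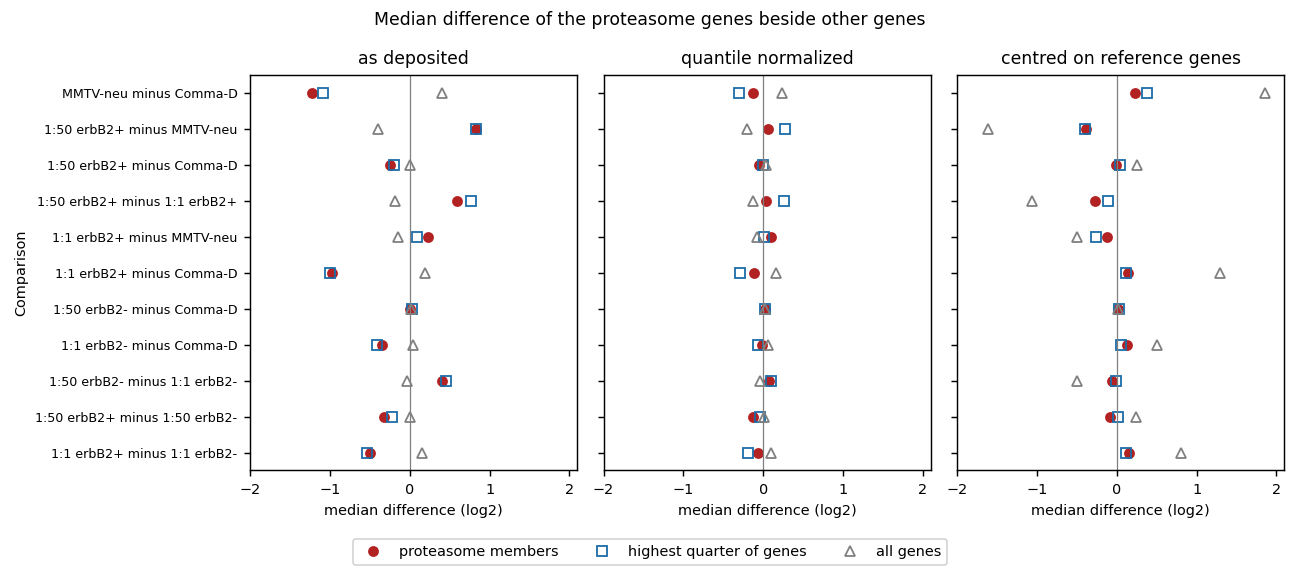
Median difference in log2 units (horizontal axis) of the 45 members, of the 4984 highest genes and of all genes in 11 comparisons under 3 scalings. For the lines as deposited the members lie at -1.23 and the 4984 highest genes at -1.08, and with centring at 0.23 and 0.38.

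Whether the effect of the ratio differed between the erbB2-positive and the erbB2-negative fraction was tested with an interaction, the 1:50 minus 1:1 difference of the positive fractions minus that of the negative ones. Of 45 members 1 was called, Psmd12, beside 2.75% of all genes, 2.45% above 0 and 0.301% below. At an unadjusted p under 0.05 there were 12 members, with no share of all genes given at that threshold. On all 3 scalings 0 members were called, beside 0.01% of all genes above 0 and 0% below. The difference of Psmd12 was 1.63 between the positive and 0.64 between the negative fractions, and the interaction was 0.99 (SE 0.25, adjusted p = 0.04261). It was 0.58 (adjusted p = 0.1285) with centring, 1.07 (adjusted p = 0.008862) after quantile normalization and had adjusted p = 0.008909 with the replicate block. Leaving out 1 array gave values from 0.83 to 1.22 and lost the call in 9 of 12 fits. Psma3 had an interaction of 1.24 (SE 0.35, adjusted p = 0.0711), with adjusted p = 0.04214 after quantile normalization and 0.02787 with the block.

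To place the fractions on the scale of the lines, the 9 members lower on all scalings were set to 0% at the Comma-D mean and 100% at the MMTV-neu mean. This describes deposited values without a test. The members were chosen by their fall on the same arrays that set the scale, which can stretch it. No position is given for other genes with a like fall, so the percentages do not mark a trait of proteasome genes. The median over these 9 was -0.33% in the 1:50 erbB2-negative fraction (from -14.3% to 5.60%) and 23.2% in the 1:1 erbB2-negative fraction (from 16.6% to 32.0%). It was 13.7% in the 1:50 erbB2-positive fraction (from 8.44% to 21.9%) and 71.4% in the 1:1 erbB2-positive fraction (from 50.4% to 83.2%). With centring the medians were -1.52%, 14.1%, 8.20% and 64.3% in the same order, and single members spread further, in the 1:1 erbB2-positive fraction from -30.8% for Psmb7 to 98.2% for Psmd7 and in the 1:1 erbB2-negative fraction from -21.8% for Psme2 to 32.2% for Psme4. After quantile normalization they were -1.27%, 9.94%, 6.03% and 55.2%. With replicate 1 of the latter 3 groups left out, a choice made after seeing the data, the deposited medians were 12.1%, 8.53% and 62.8%. Of the 45 members none was called beyond both lines in either erbB2-positive fraction (0 above and 0 below), beside 0.181% of all genes above and 0.557% below at 1:50, and 0.0502% and 0.823% at 1:1.

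**Figure D5:**
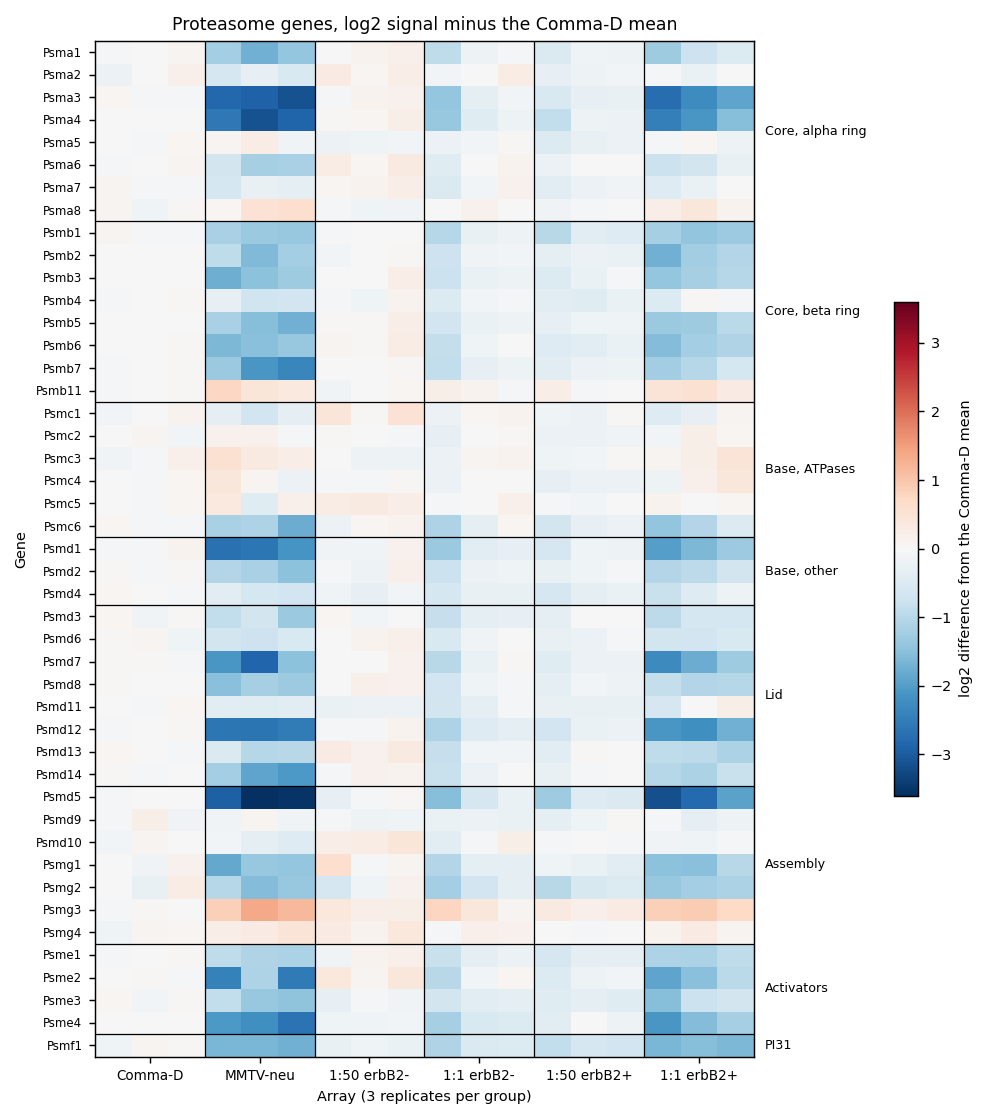
Deposited log2 level of each member on each array relative to its Comma-D mean (colour, log2 units), with members ordered by role and arrays by group. The columns of MMTV-neu and the 1:1 erbB2-positive fraction hold the lowest values, -3.43 on average for Psmd5 in MMTV-neu, while most ATPases stay near 0.

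For 5 members, among them Psma3 and Psma5, several probe sets name the gene alone, and whether the one used reads a processed copy of the gene could not be checked without a genome. The 3 of Psma3 fell by 2.95, 2.74 and 2.72 between the lines. Those of Psmd2 fell by 1.23 and 1.499. Psmb3, a beta subunit, fell by 1.51 (SE 0.16) through the probe set used and fell by 2.91 (SE 0.19) through the other. Psma5 was not called through the probe set used (0.08) but rose by 0.23 (adjusted p = 0.01819) through the other, so neither shows the fall seen in Psma3 and Psma4.

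Of other proteasome parts and partners 14 of 20 listed were measured, and 8 were lower and 1 higher in MMTV-neu than in Comma-D (median -0.83, or 0.63 with centring). Over all genes 30.4% were lower and 56.4% higher, and of the 4984 highest genes 3650 were lower and 651 higher. Pomp, which matures the core, fell by 2.31 (SE 0.21, adjusted p = 6.452e-08) and the deubiquitinase Usp14 by 1.98 (SE 0.24, adjusted p = 1.224e-06). Of 11 measured genes of proteasome transcription and its control 8 were lower and 2 higher (median -0.78, or 0.68 with centring). The zinc finger gene Zfand2a fell by 3.48 (SE 0.26, adjusted p = 5.749e-09) and the antioxidant response factor Nfe2l2 by 3.03 (SE 0.16, adjusted p = 1.168e-10). Between the erbB2-positive fractions these were higher at 1:50, Pomp by 1.52 (adjusted p = 2.444e-05), Zfand2a by 2.22 (adjusted p = 4.836e-06) and Nfe2l2 by 1.83 (adjusted p = 5.318e-07). Nfe2l1, the factor named above as background and chosen after its value was seen, fell by 1.28 between the lines, by 0.27 after quantile normalization and lay at 0.18 with centring. All 4 measured genes of the list of ubiquitin, its activating enzymes and p97 were lower in MMTV-neu (median -2.61, or -1.15 with centring), led by the p97 cofactors Ufd1 and Nploc4, which fell by 3.23 and 2.72.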

How the data were processed

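The values come from the table the authors deposited and are on the log2 scale. Per the submitters' processing notes the tools were RMA, limma and R (3.1.2), and further steps are not stated there. The table holds 35556 probe sets on 18 arrays, with 0 missing values and 0 columns of other samples. Of the probe sets 12146 have no annotation here, 1621 name several genes and were left out, and 21789 name 1 gene. The 21698 matched to the reference gene table changed 0 symbols. Where several probe sets name a gene, the one highest on average was used, which left 19938 genes. The number of arrays, 3 a group, limits the precision.

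Sample titles gave the groups and replicate numbers. A single fit of the 6 group means (lmFit and eBayes, limma 3.58.1 in R 4.3.3, 12 residual degrees of freedom) gave 11 comparisons and the interaction, two-sided, with calls at 0.05 after Benjamini-Hochberg adjustment across all genes. The script was tested on simulated data. Scalings were the deposited values, centring on 10 of 11 listed reference genes, and quantile normalization. The members, the lists and the rule for named genes were chosen with earlier results of these data known. By that rule statistics are given for a panel by role, the 2 largest called members in each direction and the 3 largest called against the members' median. Other alternatives were a filter, other probe-set choices, priors, array weights, a replicate block, pairwise fits, a stricter threshold and leaving out arrays.

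Equal replicate numbers were taken to pair samples where deviations from the group means correlate above 0.1 in every pair. This held between all co-culture groups (lowest 0.14) except the 1:50 erbB2-negative and 1:1 erbB2-positive fractions (lowest 0.07), and for no pair with an unmixed line. Samples of unlike number also correlated, up to 0.59 between the 1:1 erbB2-negative and 1:50 erbB2-positive fractions, where the lowest equal-number value was 0.57. Between the 1:1 fractions these values were 0.44 and 0.21, and between the erbB2-positive fractions 0.39 and 0.14. In pairs with the 1:50 erbB2-negative fraction unlike numbers stayed under the lowest equal-number value. The rule therefore does not establish pairing. The replicate block uses the replicate numbers.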

Additional observations from a re-analysis of the deposited data

Results flagged for a closer look

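The interaction of ratio and fraction for Psmd12, a lid subunit, was 0.985 log2 units (SE 0.25, limma adjusted p = 0.04261, n = 3 arrays a group), so its 1:50 minus 1:1 difference was larger in the erbB2-positive fractions, at 1.63, than in the erbB2-negative ones, at 0.64. It came up because the difference itself passed a test. The call was lost with centring (0.58, adjusted p = 0.1285), in a fit of the compared groups alone (adjusted p = 0.1288) and in 9 of 12 fits without 1 array. Without the MMTV-neu arrays the adjusted p was 0.06122, and without replicate 1 of the 1:1 erbB2-negative, 1:50 erbB2-positive and 1:1 erbB2-positive groups the value was 1.34 (adjusted p = 0.0001609).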

How the results depend on the processing

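Of 70 pairs of named member and comparison, 70 kept direction and call with every probe set tested on its own and with probe sets of a gene averaged, 68 with trend and robust priors, 68 with the replicate block, 64 with array weights, 55 in fits of the compared groups alone, 48 with quantile normalization and 45 with centring; the cause was not tested. Members turned with centring between the lines (Psma7 1.05, Psmc6 0.10, Psmd2 0.23, Psmd4 0.88, Psmd11 1.05, Psme1 0.41, Psme3 0.22), with quantile normalization (Psma7 0.47, Psma8 -0.11, Psmd4 0.26, Psmd11 0.65, and Psma8 -0.065 for the 1:1 erbB2-positive fraction against Comma-D), and without MMTV-neu replicate 2 (Psma5 from -0.013 to 0.19 over the arrays left out).

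Medians with centring and quantile normalization were 0.23 and -0.13 for MMTV-neu against Comma-D, -0.39 and 0.056 for the 1:50 erbB2-positive fraction against MMTV-neu, -0.013 and -0.049 against Comma-D, -0.28 and 0.030 minus the 1:1 erbB2-positive fraction, and -0.083 and -0.13 minus the 1:50 erbB2-negative fraction. They were 0.14 and -0.12 for the 1:1 erbB2-positive fraction against Comma-D, 0.15 and -0.065 minus the 1:1 erbB2-negative fraction, 0.12 and -0.010 for that fraction against Comma-D, and -0.060 and 0.069 for the 1:50 minus 1:1 erbB2-negative fraction. With centring alone the 1:1 erbB2-positive fraction against MMTV-neu moved to -0.12 and the interaction to -0.26.

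Members called on all 3 scalings, a count added after seeing the data, were 12 between the lines, 16, 0 and 10 for the 1:50 erbB2-positive fraction against MMTV-neu, Comma-D and the 1:1 erbB2-positive fraction, 3, 9 and 5 for the 1:1 erbB2-positive fraction against MMTV-neu, Comma-D and the 1:1 erbB2-negative fraction, and 0 for the 1:1 erbB2-negative fraction against Comma-D, between the erbB2-negative fractions and in the interaction. For the 1:50 erbB2-positive fraction against Comma-D, 1 member became 2 with the filter and without the replicate 1 arrays, 17 with array weights, 0 centred, 4 with the replicate block and 10 in a pairwise fit. For the 1:1 erbB2-positive fraction against MMTV-neu, 7 became 11 with array weights or quantile normalization, 18 without those arrays, and 1 in a pairwise fit or at 0.01. For the 1:50 erbB2-negative fraction against Comma-D, 0 became 3 with array weights and 1 in a pairwise fit. For the 1:1 erbB2-negative fraction against Comma-D, 10 became 25 with array weights, 16 with the replicate block, 3 with quantile normalization, in a pairwise fit and without those arrays, and 1 at 0.01. Between the erbB2-negative fractions 15 became 30 with array weights or the replicate block in 12 arrays, 5 centred, 2 quantile normalized, 1 without those arrays, and 0 in a pairwise fit and at 0.01. Within the 1:50 co-culture 0 became 19 with array weights. In the interaction 1 became 31 with array weights, 17 without those arrays, 7 with the replicate block in 12 arrays, 5 quantile normalized, 2 with the filter and with the replicate block, and 0 centred, without MMTV-neu, in a pairwise fit and at 0.01. The replicate block ended no call among the 70 pairs. Counts from these other fits stand without a share of all genes. Array weights were fitted gene by gene, chosen after the default did not converge. The fits without those arrays, without MMTV-neu and with 12 arrays were added after seeing the data.

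Leaving out 1 array gave counts of 36 to 39 between the lines, 33 to 37, 1 to 2 and 26 to 32 for the 1:50 erbB2-positive fraction against MMTV-neu, Comma-D and the 1:1 erbB2-positive fraction, 0 to 13, 31 to 33 and 17 to 30 for the 1:1 erbB2-positive fraction against MMTV-neu, Comma-D and the 1:1 erbB2-negative fraction, 1 to 23 for the 1:1 erbB2-negative fraction against Comma-D, 0 to 25 between the erbB2-negative fractions and 0 to 16 in the interaction. Signals under the array median, as of Psma8, Psmb11, Psmg3, Psmg1 and Psmd5, limit what a fold can show.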

Other observations

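Genes of other complexes, listed for comparison with the proteasome, changed in the same comparisons. Of 8 genes of the chaperonin CCT, which folds actin and tubulin, 7 were lower and 0 higher in MMTV-neu than in Comma-D (median -2.71, or -1.25 with centring), and Cct6a fell by 3.85 (SE 0.33, limma adjusted p = 3.403e-08) and Cct8 fell by 3.37 (SE 0.35, adjusted p = 2.171e-07). Between the erbB2-positive fractions 7 were higher at 1:50 (median 1.58), beside 27.4% of all genes. Within the 1:1 co-culture 7 were lower in the erbB2-positive fraction (median -1.42), beside 21% of all genes. Among the 4984 genes with the highest means 3430 were higher in the first of these comparisons and 2896 lower in the second. Of 9 genes of the COP9 signalosome, a relative of the lid, 7 were lower and 2 higher between the lines (median -1.41, or 0.05 with centring), where Cops4 fell by 2.13 (adjusted p = 5.213e-08) and Cops5 fell by 1.98 (adjusted p = 1.467e-06). Of 11 measured genes of the translation factor eIF3, which shares domains with the lid, 10 were lower and 1 higher (median -1.46, or -0.0051 with centring), where Eif3f fell by 3.66 (adjusted p = 9.63e-10) and Eif3b fell by 2.82 (adjusted p = 7.239e-10). Between the lines 30.4% of all genes were lower, and 3650 of the 4984 highest.

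The immunoproteasome subunits, which replace the catalytic beta subunits in cells stimulated by interferon, did not move together. Psmb9 rose by 0.85 in MMTV-neu (SE 0.13, adjusted p = 1.138e-05) and kept that sign and call on all 3 scalings, Psmb8 fell by 0.62 (SE 0.11, adjusted p = 8.946e-05) but lay at 0.84 with centring, and Psmb10 differed by -0.13 (adjusted p = 0.2098). Psmb9 was lower in the 1:50 than in the 1:1 erbB2-positive fraction, where it fell by 0.72 (adjusted p = 0.000172).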
